A study of Mus musculus with 3 samples.

Results

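The barcodes described here are kidney barcodes that carried transcripts of Cntnap5a and Anks1b, a pair of genes better known from neurons, and that were taken from 3 single-cell libraries of male mouse kidney. They were selected on measured UMIs, so the levels of those genes in them are no finding. A barcode was kept when under 30% of its counts came from mitochondrial genes, when it held at least 2 unique molecular identifiers (UMIs, each standing for 1 captured transcript) summed over both genes with at least 1 of Cntnap5a, and when it held 0 UMIs of each of Cyp4a14, Flt1, Emcn, Slc12a1 and Slc12a3. These last 5 genes mark a fatty acid-rich tubule state (Cyp4a14), endothelium (Flt1 and Emcn), thick ascending limb (Slc12a1) and distal convoluted tubule (Slc12a3). In all, 250 of 22679 barcodes met the rule, 78 in the aged D+Q library, 129 in the aged vehicle library and 43 in the young library.

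The aged D+Q group was 20-month-old male mice given D+Q, which usually stands for the kinase inhibitor dasatinib with the flavonoid quercetin. The aged vehicle group was male mice of the same age given vehicle, and the young group was male mice labelled 3/4-month. No genetic change is named for any group. Each group gave 1 library of dissociated kidney cells, the number of animals behind a library is not given, and so no difference between groups has a replicate check. Every interval below is a 95% interval for counting error only.

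The proximal tubule is the first nephron segment after the glomerulus and takes back most of the filtered sugar, amino acids, phosphate and bicarbonate. Its successive parts S1, S2 and S3 are known for different transporters: the sodium-coupled glucose and lactate carriers Slc5a2 and Slc5a12 in S1, the organic anion uptake carriers Slc22a6 and Slc22a8 in S2, and the amino acid carrier Slc7a13 in S3. Cntnap5a encodes a contactin-associated protein of the neurexin family, a group of cell adhesion proteins, and Anks1b encodes a scaffold protein with ankyrin repeats and SAM domains that is studied at synapses. Cyp2j13 is a cytochrome P450 of the epoxygenase family, and Slc22a30 belongs to a family of organic anion carriers. Many genes of the mouse proximal tubule differ between the sexes, and the carriers Slco1a1 and Slc7a13 are known for higher levels in male kidneys.

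The aged D+Q library held 8037 barcodes and 21058975 counts, the aged vehicle library 6027 barcodes and 13944270 counts, and the young library 8615 barcodes and 24346733 counts. Median counts per barcode were 2299, 1883 and 2391 in that order of libraries. The mitochondrial limit left 7275, 5749 and 7698 barcodes, and at or above it 0, 1 and 0 barcodes met the rest of the rule. Pairs of libraries shared 28 to 38 barcode sequences, of which 0 belonged to expressing barcodes. The median expressing barcode had 2708 counts in aged D+Q, 1988 in aged vehicle and 2756 in young, and their sums were 215534, 292282 and 120990 counts. Their median mitochondrial share was 4.61%, 3.29% and 4.23%.

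Few transcripts carried the selection. The sum of Cntnap5a and Anks1b UMIs was exactly 2, the least the rule allows, in 49 of 78 aged D+Q, 90 of 129 aged vehicle and 31 of 43 young barcodes. It reached at most 7, 5 and 4 UMIs in the 3 libraries. Both genes were seen in 45 aged D+Q, 67 aged vehicle and 25 young barcodes, and Cntnap5a alone in the other 33, 62 and 18. Just outside the rule stood barcodes with 1 UMI of Cntnap5a and none of Anks1b that met its other terms, which numbered 108, 170 and 85. Barcodes with 2 or more UMIs of Anks1b and none of Cntnap5a numbered 75, 83 and 23.

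As shares of all barcodes under the mitochondrial limit, the expressing barcodes were 1.07% of aged D+Q (0.848 to 1.34), 2.24% of aged vehicle (1.88 to 2.66) and 0.559% of young barcodes (0.405 to 0.752), with exact Clopper-Pearson intervals. The 3 intervals did not overlap. The aged vehicle share was 4.02 times the young one (2.82 to 5.81), and the aged D+Q share was 0.478 times the aged vehicle one (0.356 to 0.638). The aged D+Q share was 1.92 times the young one (1.31 to 2.85). These shares count what the rule selects and are given as a description, with no test.

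The 5 genes required at 0 UMIs were not equally frequent in the libraries. Barcodes that met the Cntnap5a and Anks1b condition alone numbered 253, 284 and 149, and the 5-gene condition kept 30.8%, 45.4% and 28.9% of them in aged D+Q, aged vehicle and young. Cyp4a14, a fatty acid omega-hydroxylase, was seen in 6.83% of all aged D+Q, 2.82% of all aged vehicle and 19.2% of all young barcodes, and barcodes at 0 of all 5 genes were 37.2%, 45.1% and 29.9%. Without the 5-gene condition the shares were 3.48% in aged D+Q, 4.94% in aged vehicle and 1.94% in young, and the aged vehicle share was 2.55 times the young one (2.09 to 3.13). The aged D+Q share was then 0.704 times the aged vehicle one (0.592 to 0.837). Among barcodes at 0 of the 5 genes the shares were 2.88%, 4.98% and 1.87%, with the aged vehicle share 2.66 times the young one (1.87 to 3.85).

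The order of the shares was the reverse of the order of depth: the aged vehicle library had the fewest counts per barcode and the largest share, and the young library the most counts and the smallest share. With 1000 UMIs drawn once at random from every barcode, the shares were 0.454% in aged D+Q (0.312 to 0.637), 0.991% in aged vehicle (0.752 to 1.28) and 0.208% in young (0.119 to 0.337). The aged vehicle share was 4.77 times the young one at this depth (2.70 to 8.90), and the aged D+Q share 0.458 times the aged vehicle one (0.289 to 0.715). Thinned without the 5-gene condition these ratios were 4.07 (2.56 to 6.68) and 0.520 (0.356 to 0.753). Below 1800 counts the shares were 0.281%, 1.79% and 0.343% in aged D+Q, aged vehicle and young, with 4 expressing barcodes each in aged D+Q and young. In barcodes of 1800 to 2200 counts they were 0.618%, 2.70% and 0.407%, and in barcodes of 3000 to 5000 counts 1.69%, 3.75% and 0.905%. Between 2200 and 3000 counts, aged D+Q at 1.61% (1.15 to 2.18) and aged vehicle at 2.17% (1.38 to 3.24) overlapped, with young at 0.619%. At 5000 counts or more they were 0 of 316 (up to 1.16%), 0.847% and 0 of 464 (up to 0.792%).

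**Figure D1:**
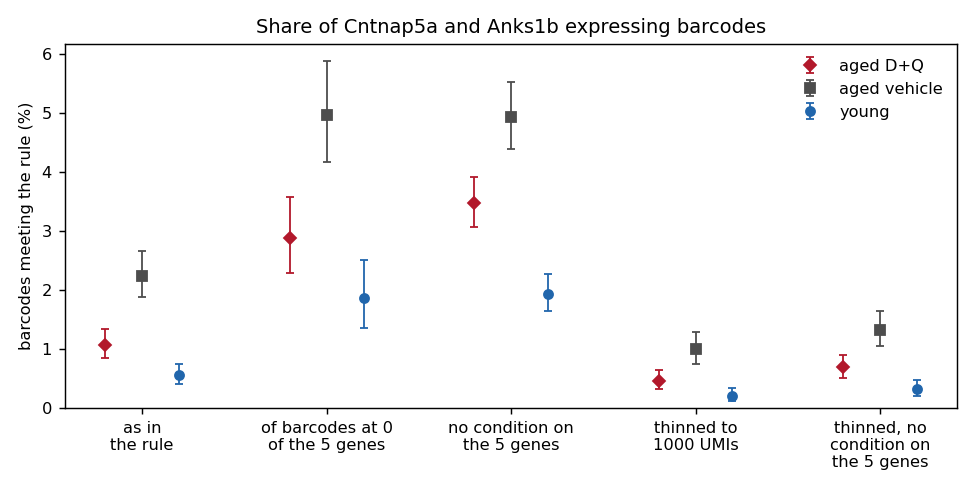
Percent of barcodes that meet the rule (y axis) in the aged D+Q, aged vehicle and young libraries, as the rule stands and under other denominators, without the 5-gene condition and after thinning to 1000 UMIs (x axis); points are shares and bars exact 95% intervals. The aged vehicle library is highest in every setting, at 2.24% as the rule stands, against 1.07% in aged D+Q and 0.559% in young.

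Cntnap5a and Anks1b were not limited to the expressing barcodes. Of all Cntnap5a UMIs, 18.0% in aged D+Q, 26.8% in aged vehicle and 12.1% in young lay in them, and of all Anks1b UMIs 4.91%, 7.51% and 4.21%. Levels were therefore set side by side in classes of barcodes under the mitochondrial limit: S3 and S1 barcodes (expressing barcodes included), with at least 2 UMIs over 5 markers of that segment and more than over those of the other, and barcodes with at least 5 UMIs of Flt1 and Emcn, of Slc12a1 or of Slc12a3. Levels are CPM, the summed counts of a class scaled to a common total. Cntnap5a stood at 58.9 CPM (53.6 to 64.6) in aged D+Q, 84.1 CPM (76.2 to 92.5) in aged vehicle and 36.0 CPM (31.6 to 41.0) in young S3 barcodes. In S1 barcodes it stood at 26.1, 51.0 and 24.3 CPM. The S3 level was 2.26 times the S1 level in aged D+Q (1.89 to 2.71), 1.65 times in aged vehicle (1.40 to 1.95) and 1.48 times in young (1.22 to 1.80).

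Barcodes of other cell types held both genes at about the S1 level. Cntnap5a was at 35.3, 45.9 and 17.0 CPM in endothelial barcodes of aged D+Q, aged vehicle and young, and at 30.2, 44.0 and 18.4 CPM in thick ascending limb barcodes. The S3 level was 1.67 times the endothelial one in aged D+Q (1.30 to 2.17), 1.83 times in aged vehicle (1.42 to 2.39) and 2.12 times in young (1.56 to 2.93). Anks1b was at 88.9, 113 and 46.2 CPM in S3 barcodes and at 42.1, 60.6 and 30.0 CPM in endothelial barcodes. Free RNA can give such counts in cells that do not express a gene. Its part was not tested, as no empty droplets were used here.

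The differences between libraries were shared by these other classes. In aged vehicle over young, Cntnap5a was 2.33-fold higher in S3 barcodes (1.98 to 2.75), 2.10-fold in S1 barcodes (1.73 to 2.55) and 2.70-fold in endothelial barcodes (1.86 to 3.95). Anks1b was 2.45-fold higher in S3 (2.13 to 2.83) and 2.02-fold higher in endothelial barcodes (1.5 to 2.73). In aged D+Q over aged vehicle, Cntnap5a was at 0.701 times in S3 (0.612 to 0.802) and 0.512 times in S1 barcodes (0.417 to 0.627), and at 0.769 times in endothelial barcodes, with an interval that held equality (0.548 to 1.08). The levels in other cell types thus moved with the shares, and their part in the differences of share was not tested. Fewer expressing cells and fewer transcripts per cell cannot be told apart at 2 UMIs per barcode.

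As a background for the share of barcodes with these UMIs, the Cntnap5a and Anks1b condition was met by 5.00% of aged D+Q, 5.61% of aged vehicle and 2.78% of young S3 barcodes, at median depths of 2412, 1860 and 2564 counts. Endothelial barcodes were deeper, at 3288, 4153 and 3836 counts, and 5.74%, 12.7% and 2.12% of them met it. After thinning to 1000 UMIs it was met by 1.17% of aged D+Q S3 barcodes (0.798 to 1.66), 1.74% of aged vehicle ones (1.24 to 2.39) and 0.427% of young ones (0.195 to 0.808). The thinned endothelial shares were 0 of 290 in aged D+Q (up to 1.26%), 1.38% in aged vehicle (0.168 to 4.89) and 0 of 288 in young (up to 1.27%). At this depth S3 and endothelial shares could not be separated, because their intervals overlapped in each library. The thinned S1 shares were lower than the S3 shares in aged D+Q, at 0.309% (0.134 to 0.608), while in aged vehicle, at 0.955% (0.584 to 1.47), and in young, at 0.162% (0.0526 to 0.378), the intervals overlapped those of S3.

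**Figure D2:**
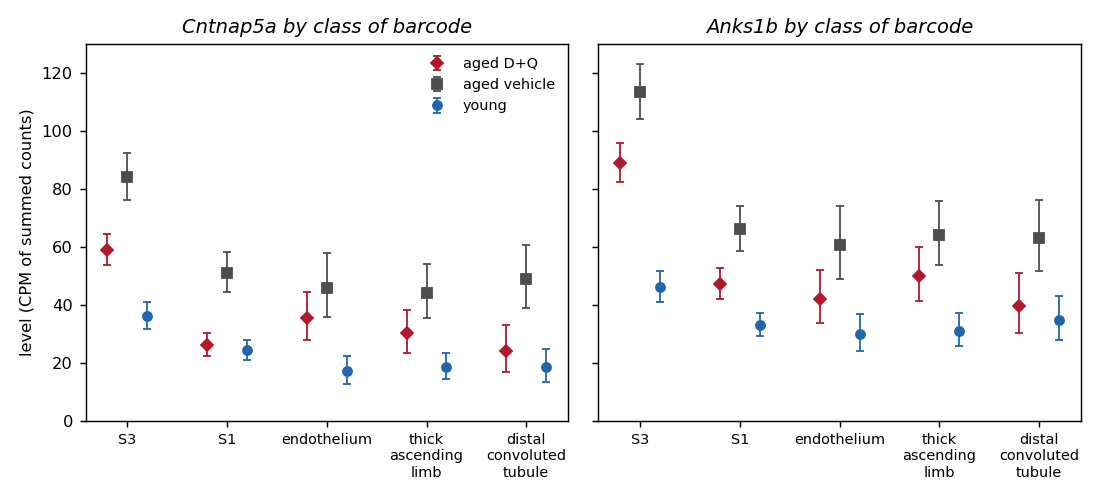
Levels of Cntnap5a (left) and Anks1b (right) in CPM (y axis) by class of barcode (x axis) in the 3 libraries, with exact 95% Poisson intervals. Of the 5 classes shown, both genes are highest in S3 barcodes of aged vehicle, at 84.1 and 113 CPM, and the aged vehicle library is highest in every class.

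The profile of the expressing barcodes was then set against the other barcodes of the same library that held 0 UMIs of Cntnap5a, Anks1b and the 5 genes (2223, 1988 and 2022 barcodes). These also held at least 2 UMIs over 6 general proximal tubule markers, a condition that all but 1 of the barcodes under the mitochondrial limit met and that therefore removed few other cells. A stricter set of the others, with at least 3 UMIs of Slc34a1 and at most 1 UMI over 47 markers of other cell types (1630, 1519 and 1271 barcodes), is given beside it. Of 5445 genes measured, 8 (0.147%) were at least 2-fold higher in the expressing barcodes in each of the 3 libraries, and 54 (0.992%) were at least 2-fold lower. With 1 library left out the count of higher genes was 12 without aged D+Q, 26 without aged vehicle and 16 without young. At 1.5-fold the counts were 55 higher (1.01%) and 109 lower (2%).

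The expressing barcodes carried the proximal tubule transcripts their name calls for, and barcodes of other classes held Slc34a1 too. Slc34a1, the sodium phosphate carrier of the proximal tubule, was at 6338 CPM in aged D+Q, 6620 in aged vehicle and 5290 in young expressing barcodes, against 4927, 5255 and 4901 CPM in the other barcodes. In endothelial barcodes it was at 2998, 4727 and 3518 CPM, so the level of Slc34a1 alone does not settle a cell type. Against the stricter set, itself chosen by Slc34a1, its log2 ratios were 0.13, 0.09 and -0.18. The endocytic receptor genes Lrp2 and Cubn had log2 ratios between -0.14 and 0.30 in the 3 libraries. Kap, an abundant androgen-dependent kidney transcript, had log2 ratios of -0.03, -0.35 and -0.12.

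Markers of some other cell types were low among them and those of others were not. The 6 fibroblast markers summed to 5, 3 and 3 counts over all expressing barcodes of aged D+Q, aged vehicle and young. The 6 podocyte markers had log2 ratios of -1.20, -1.27 and -1.28 against the other barcodes, but still stood at 455, 438 and 380 CPM. These were 98, 128 and 46 counts in expressing barcodes, from 2, 3 and 2 of the 6 genes. Endothelial markers other than Flt1 and Emcn summed to 13, 13 and 6 counts, with log2 ratios of -0.04, -0.09 and -0.30. The other 5 thick ascending limb markers summed to 803, 633 and 984 CPM, with log2 ratios of -0.31, -0.34 and 0.12, so that transcripts of that segment were present at about the level of the other barcodes. The other 4 distal convoluted tubule markers had -0.28, -0.10 and -0.28, and the 5 thin limb markers 0.04, -0.56 and -0.29. Markers of intercalated cells had -2.39, -0.87 and 0.22, on 2, 7 and 13 counts. The part of these transcripts in the results was not tested.

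Both genes that the cells are named with beside the rule were higher. Slc22a30 was at 2213 CPM in aged D+Q, 1984 in aged vehicle and 2141 in young expressing barcodes, against 1222, 1275 and 1069 CPM in the other barcodes. The log2 ratios were 0.86 (0.72 to 0.99), 0.64 (0.51 to 0.76) and 1.01 (0.82 to 1.18), and 0.72, 0.57 and 0.93 against the stricter set. Cyp2j13 was at 812, 931 and 504 CPM in expressing barcodes, against 463, 528 and 265 CPM in the others. Its log2 ratios were 0.81 (0.58 to 1.03), 0.82 (0.63 to 1.00) and 0.94 (0.54 to 1.30), and 0.59, 0.58 and 0.72 against the stricter set. The levels in expressing barcodes lay above those of the others in all 3 libraries for both genes, which is given as a description.

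The share of barcodes with a UMI gave the same order. After thinning, Slc22a30 was seen in 85.9%, 79.1% and 88.4% of expressing barcodes of aged D+Q, aged vehicle and young, against 58.6%, 63.4% and 52.7% of the other barcodes and 31.7%, 49.0% and 25.0% of endothelial barcodes. The unthinned shares were 98.7%, 96.1% and 100% in expressing barcodes and 77.4%, 78.5% and 71.2% in the others. Cyp2j13 was seen after thinning in 52.6%, 57.4% and 34.9% of expressing barcodes, against 32.2%, 34.1% and 19.4% of the others and 13.8%, 28.3% and 10.8% of endothelial barcodes. The endothelial shares are given as those of cells not known for these genes, and the part of free RNA or mixed droplets in them was not tested.

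Slco1a1, Nat8f6 and Ces1f were the genes with the highest ratios among those with an interval past 1.5-fold in each library and at least 20 counts, and 3 genes met this in all. Slco1a1, an organic anion carrier of the apical membrane, was at 436, 400 and 380 CPM in expressing barcodes of aged D+Q, aged vehicle and young, against 144, 180 and 160 CPM in the others. Its log2 ratios were 1.61 (1.28 to 1.91), 1.16 (0.86 to 1.44) and 1.27 (0.79 to 1.68), and 1.45, 0.94 and 1.03 against the stricter set. With barcodes thinned to 1000 UMIs, which left 33, 57 and 16 expressing barcodes, the lowest of the 3 ratios was -0.12 for Slco1a1 and -0.15 for Nat8f6. Nat8f6, of a family of N-acetyltransferases, had 965, 780 and 727 CPM in expressing barcodes, against 518, 382 and 374 CPM in the others. Ces1f, a carboxylesterase, had 1568, 1406 and 1413 CPM in expressing barcodes, against 810, 842 and 732 CPM in the others. Slco1a1, Nat8f6, Ces1f, Cyp2j13 and Slc22a30 belong to families of near-identical members, and no source used here says how the authors' counting shared out reads that could come from several of them.

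The S2 markers were the segment list with the most members higher. Of 6 measured, 3 were at least 1.5-fold higher in each library and 0 lower, beside 1.01% and 2% of all genes. Their median log2 ratio was 0.42 beside 0.03 over all genes. The 3 higher were Slco1a1, the organic anion carrier Slc22a6 and the cytochrome P450 Cyp2e1. Slc22a6 had 0.69, 0.72 and 0.98 in aged D+Q, aged vehicle and young, and Cyp2e1 0.59, 0.62 and 0.59. Slco1a1 was already named above for its high ratio. It was at 220, 249 and 212 CPM in S3 barcodes, against 71.8, 101 and 122 CPM in S1 barcodes. The other 3 S2 markers, Slc22a8, Slc22a12 and Slc13a1, had log2 ratios between -0.40 and 0.49. Slc13a3, the dicarboxylate carrier of the basolateral membrane, also had higher values, at 362, 462 and 339 CPM in expressing barcodes against 230, 226 and 183 CPM in the others.

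Most S1 markers were low. Of 7 S1 markers measured, 5 were at least 1.5-fold lower in each library and 0 higher, beside 2% and 1.01% of all genes. Their median log2 ratio was -1.75. Slc5a12, the sodium-coupled lactate carrier, was at 292, 708 and 231 CPM in expressing barcodes of aged D+Q, aged vehicle and young, against 2506, 2550 and 2062 CPM in the others. Its log2 ratios were -3.09 (-3.48 to -2.74), -1.84 (-2.05 to -1.65) and -3.13 (-3.75 to -2.62). The glucose carrier Slc5a2 had log2 ratios of -1.97, -1.19 and -2.55, the amino acid carrier Slc7a7 -2.34, -1.49 and -1.42, and Gatm, the first enzyme of creatine synthesis, -2.21, -1.38 and -2.3. The bicarbonate carrier Slc4a4, the S1 marker nearest to equality, had -0.32, -0.12 and -0.10. The aged vehicle ratio was the nearest to 0 for Slc5a12, Slc5a2 and Gatm.

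S3 markers were mixed. Of 8 measured, 0 were at least 1.5-fold higher in each library and 1 lower, with a median log2 ratio of 0.21. Among all genes 1.01% were higher and 2% lower, so 0 or 1 of 8 is not read as a result. Slc7a13, which takes up aspartate and glutamate, was at 2292, 1416 and 1537 CPM in expressing barcodes of aged D+Q, aged vehicle and young, against 1522, 1338 and 958 CPM in the others. Its ratio was 0.59 in aged D+Q (0.46 to 0.72) and 0.69 in young (0.46 to 0.89), and in aged vehicle it was 0.08 (-0.07 to 0.23). The phospholipid flippase Atp11a had 0.47, 0.40 and 0.68. Cyp7b1, an oxysterol hydroxylase, was the marker with low values, at 139, 530 and 99.2 CPM in expressing barcodes against 448, 912 and 409 CPM in the others, and against the stricter set its log2 ratios were -1.09, 0.25 and -1.15. Barcodes with more S3 than S1 marker UMIs made up 80.8% of expressing barcodes in aged D+Q, 62.0% in aged vehicle and 55.8% in young, against 45.7%, 46.9% and 37.1% of the others.

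**Figure D3:**
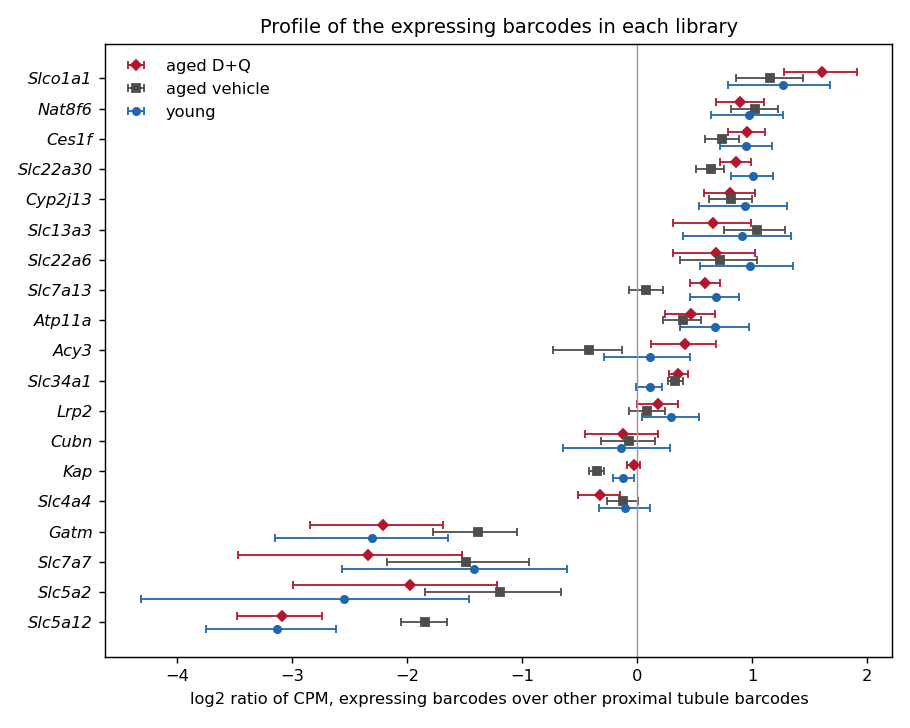
Log2 ratio of levels in the expressing barcodes over the other proximal tubule barcodes (x axis) for general, S1, S2 and S3 markers and the highest genes (y axis) in each library, with exact conditional 95% intervals. Slco1a1 is highest at 1.61, 1.16 and 1.27, and Slc5a12 lowest at -3.09, -1.84 and -3.13, in aged D+Q, aged vehicle and young.

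Because S1 and S3 barcodes made up most of the others, the same genes were set against each of them. Against S3 barcodes the log2 ratios of Slc22a30 were 0.43, 0.32 and 0.39 in aged D+Q, aged vehicle and young, and those of Cyp2j13 0.84, 1.01 and 1.09. Against S1 barcodes they were 1.34, 1.05 and 1.59 for Slc22a30, and 0.73, 0.66 and 0.85 for Cyp2j13. Slco1a1 was higher than in S3 barcodes (1.00, 0.69 and 0.86) and than in S1 barcodes (2.61, 1.99 and 1.66), as were Ces1f, Slc13a3 and Slc22a6 in each library. Slc5a8, a monocarboxylate carrier, and Slc6a18, a neutral amino acid carrier, stood apart from S1 barcodes (1.71, 1.71 and 1.41 for Slc5a8) but had values between -0.47 and 0.03 against S3 barcodes. Slc6a19, the main neutral amino acid carrier of the early tubule, was lower than in S1 barcodes (-1.81, -2.25 and -2.5) and had ratios of 0.28, 0.53 and 0.25 against S3 barcodes.

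Some male-biased kidney genes had higher values. Of 19 measured, 6 were at least 1.5-fold higher in each library and 1 lower, beside 1.01% and 2% of all genes. Their median log2 ratio was 0.55 beside 0.03 over all genes. The 6 include Slco1a1, Ces1f, Slc22a30 and Cyp2j13, which also stand in the lists above, and the fatty acid hydroxylase Cyp4a12a, with 24, 29 and 8 counts in expressing barcodes and ratios of 0.70, 0.68 and 1.70. The member that was lower was Cyp7b1. Slc22a28 of the organic anion carrier family had ratios of 0.61, 0.46 and 0.84 in aged D+Q, aged vehicle and young, and Cyp4b1, a cytochrome P450, 0.73, 0.50 and 0.58. Srd5a2, the steroid 5-alpha-reductase that makes dihydrotestosterone, had 8, 18 and 5 counts and ratios of 1.18 (-0.15 to 2.14), 1.38 (0.53 to 2.08) and 1.60 (-0.19 to 2.76).

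Among the carrier families, 3 of 22 organic ion carriers were at least 1.5-fold higher in each library and 1 lower. The lower one was the export pump Abcc4 with 3, 10 and 4 counts. Beside each list of this paragraph, 1.01% of all genes were higher in each library and 2% lower. Of 16 amino acid carriers, 0 were higher and 4 lower, with a median log2 ratio of -0.28. The 4 were Slc7a7, Slc7a8, Slc6a19 and the aromatic amino acid carrier Slc16a10, which are carriers of the early tubule or of the basolateral membrane. Of 6 Cyp2j epoxygenases measured, 1 (Cyp2j13) was at least 1.5-fold higher, while Cyp2j5, the most abundant of them in expressing barcodes by counts, had ratios of 0.48, 0.13 and 0.38. Of 13 proximal tubule transcription factors, 0 passed 1.5-fold in either direction, which is near the share over all genes. Hnf4a, a master regulator of the segment, had 0.37, 0.16 and 0.64.

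Other genes known from neurons did not accompany Cntnap5a and Anks1b as a group. Of 34 neuronal adhesion genes, 10 were measured, with a median log2 ratio of -1.19 against the full set of others. In each library 0 were at least 1.5-fold higher and 5 lower, beside 1.01% and 2% of all genes. The low values depended on the comparison barcodes for some genes. Against the stricter set Pcdh9 had ratios of -0.39, 0.05 and -1.07 and Robo2 0.08, -0.81 and -0.39, all with intervals that held equality. Ctnna2, a neuronal alpha-catenin, had 40, 102 and 40 counts and ratios of 0.54 (0.03 to 0.99), 0.59 (0.28 to 0.88) and 0.71 (0.20 to 1.14). Magi2, a scaffold protein also abundant in podocytes, had ratios of -1.24, -1.25 and -1.26. Csmd1 and Tenm3 were among the lower genes, with 9 counts or fewer in expressing barcodes of each library.

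The genes named as lowest by the same rule, 9 of which are given of the 22 that met it, were of several kinds. Acss1, a mitochondrial acetyl-CoA synthetase, had 2, 2 and 1 counts in expressing barcodes, or 9.28, 6.84 and 8.27 CPM, against 78.5, 83.8 and 82.8 CPM in the others. Against the stricter set its log2 ratios were -2.95, -3.48 and -2.99, and against S3 barcodes -0.33, -0.40 and -0.22. With barcodes thinned to 1000 UMIs, a ratio of Acss1 was above 0 in at least 1 library, at 0.30, with no interval given. Angpt1, a ligand of the endothelial receptor Tek, had 0 counts in aged D+Q and young expressing barcodes, and was at least 12.5-fold and 7.06-fold lower there than in the others against a floor of 3 counts per library. In aged vehicle 3 expressing barcodes held its 10 counts. Pde1a, a calmodulin-dependent phosphodiesterase, was at 51.0, 58.2 and 24.8 CPM in expressing barcodes, against 245, 219 and 145 CPM in the others. Against S3 barcodes Pde1a was not lower. Its log2 ratios were 0.43 (-0.68 to 1.27), 0.74 (-0.16 to 1.49) and 0.04 (-2.49 to 1.46) in aged D+Q, aged vehicle and young, intervals that held equality. Angpt1 had 0.73 against S3 barcodes in aged vehicle (-0.49 to 1.71). In aged D+Q and young, where Angpt1 had 0 counts, its intervals against S3 barcodes reached up to -0.87 and 0.42.

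The other 5 of these genes followed the choice of comparison barcodes. Cald1, Pcdh9, Robo2, Lama2 and Rbms3, which are known from stromal, vascular or glomerular cells, had 0 to 7 counts in expressing barcodes of each library. At 0 counts in young, Cald1, Pcdh9 and Lama2 were at least 3.15-fold, 2.37-fold and 2.44-fold lower than in the others, against the same floor. In the young stricter set these 3 genes were at 10.1, 8.51 and 8.18 CPM, under that floor of 24.8 CPM. No lower level can be stated against that set in young. The log2 ratios against it were -0.47, -0.67 and -1.32 for Cald1 and -0.31, -0.47 and -1.01 for Lama2. All of these intervals held equality. Against the stricter set, some ratios were above 0: Pcdh9 had 0.05 in aged vehicle, and Robo2 and Rbms3 0.08 and 0.47 in aged D+Q. Of injury and repair genes, 6 were measured and 4 were at least 1.5-fold lower in each library, beside 2% of all genes. Among them were the matrix protein gene Spp1 (-1.86, -1.48 and -2.85) and Clu (-1.30, -1.74 and -0.75). These ratios are against the full set of others, and values against the stricter set are not given for them. No member of the injury and repair list was 1.5-fold higher in each library, beside 1.01% of all genes.

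Levels were also read along the number of Cntnap5a and Anks1b UMIs, to see whether barcodes with more of them held more of the other markers. The barcodes with 1 UMI held it in Cntnap5a. Slc22a30 in aged D+Q was at 1222 CPM in barcodes with 0 UMIs, 1897 with 1, 2135 with 2, 2390 with 3 and 2272 with 4 or more. In aged vehicle the values were 1275, 1930, 2019, 1674 and 2211 CPM, and in young 1069, 1791, 2026, 2024 and 2930 CPM. In each library barcodes with 1 UMI already lay above those with 0, and in young the highest level was in the 6 barcodes with 4 or more. Bins of 3 and of 4 or more held 18 and 11, 22 and 17, and 6 and 6 barcodes in the 3 libraries, under the 20 below which a bin is thin in all but 1 of these bins. Slc5a12 went the other way from 0 to 1 UMI, at 2506 and 567 CPM in aged D+Q, 2550 and 594 in aged vehicle, and 2062 and 405 in young. In the expressing barcodes, with 2 or more UMIs, it was at 292, 708 and 231 CPM. The aged vehicle level of Slc5a12 thus did not fall further past 1 UMI.

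Expressing barcodes with both genes and those with Cntnap5a alone were also set side by side. Slc22a30 was at 2379 CPM with both and 1977 with Cntnap5a alone in aged D+Q, 1861 and 2127 in aged vehicle, and 2041 and 2270 in young. Slco1a1 was at 450.5 and 416 CPM in aged D+Q, at 377 and 427 CPM in aged vehicle, and at 308 and 473 CPM in young. The intervals of Slc22a30 and Slco1a1 overlapped in each library. Cyp7b1 in aged vehicle was at 313 CPM with both genes (232 to 414) and 780.0 CPM with Cntnap5a alone (639 to 943), and 30.3% of its counts in that library came from 1 barcode. In young it had 0 counts with both genes (up to 54.1 CPM) and 227 CPM with Cntnap5a alone (117 to 396), while in aged D+Q it was at 198 (128 to 292) and 56.2 CPM (18.2 to 131). Slc5a12 in aged vehicle was at 908 CPM with both genes (765 to 1070) and 478 CPM with Cntnap5a alone (369 to 610), and Slc7a13 at 1624 (1431 to 1837) and 1177 CPM (1002 to 1375).

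**Figure D4:**
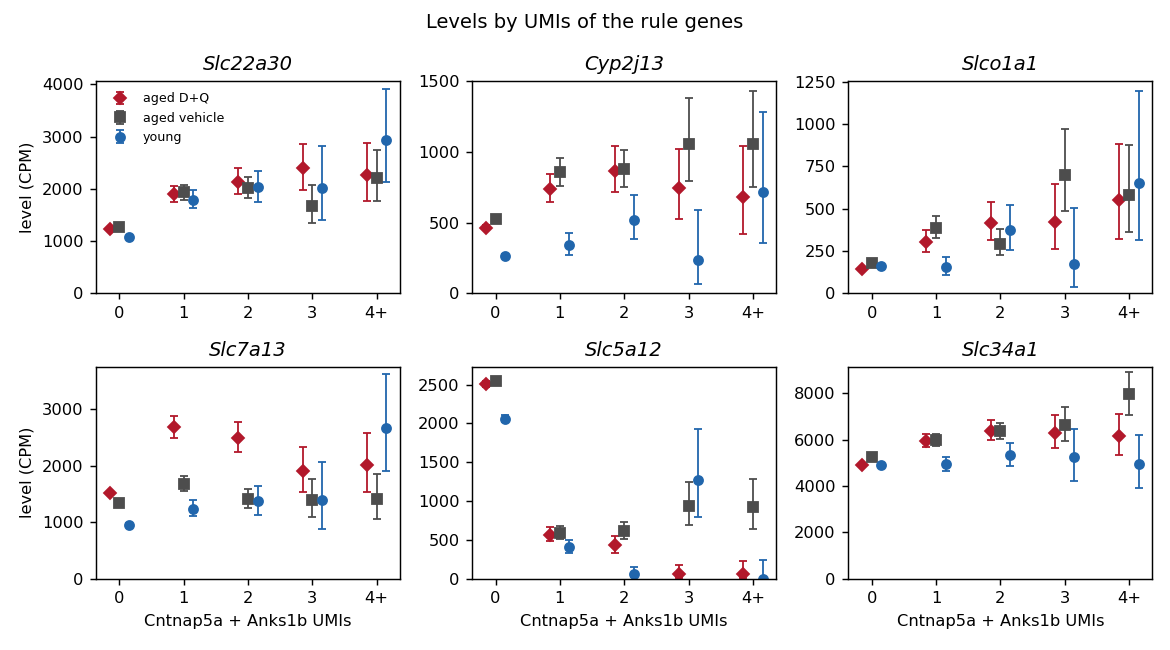
Levels in CPM (y axes) of 6 genes by the number of Cntnap5a and Anks1b UMIs in a barcode (x axes) in the 3 libraries, with exact 95% Poisson intervals. Slc22a30 is already at 1897, 1930 and 1791 CPM with 1 UMI in aged D+Q, aged vehicle and young, against 1222, 1275 and 1069 CPM with 0.

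Between the aged vehicle and young libraries, the expressing barcodes differed by at least 2-fold in 167 of 2644 genes measured that were higher (6.32%) and 64 that were lower (2.42%) in aged vehicle. At 1.5-fold these were 517 (19.6%) and 278 (10.5%), with 1 library per group and a median log2 ratio of 0.09. The young side of this comparison was 43 barcodes, so that many genes rested on a few counts. Of the genes with an interval past 1.5-fold and at least 20 counts on the higher side, 33 were higher and 15 lower.

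Peroxisomal fatty acid genes were among the lower ones. Ehhadh, a peroxisomal beta-oxidation enzyme, was at 99.2 CPM in aged vehicle and 512 CPM in young expressing barcodes, a log2 ratio of -2.36 (-3.06 to -1.71) beside -1.63 in the other barcodes. Of 19 fatty acid oxidation genes measured, 8 were at least 1.5-fold lower in aged vehicle and 2 higher, with a median of -0.31. Over all genes 10.5% were lower and 19.6% higher. Cyp4a10, a fatty acid hydroxylase, had -1.61 and Acaa1b, a peroxisomal thiolase, -1.35, beside -0.82 and -0.52 in the others. Cyp4a14, of the same family as Cyp4a10, is at 0 in these barcodes by the rule, so this list cannot be read apart from how the barcodes were chosen.

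Further genes with low values in aged vehicle were Tnfsf10, a death receptor ligand (-2.05, with 12 counts in aged vehicle and 21 in young), Car4, a carbonic anhydrase (-1.98), Trpm3, a cation channel (-1.94), and Micos10, a mitochondrial inner membrane protein (-1.87). Plau, the urokinase gene, had -1.84, Arrdc3, an arrestin-domain gene, -1.80 and Ttr, the thyroxine carrier transthyretin, -1.76. In the other barcodes the same ratios were 0.02 for Tnfsf10, -0.57 for Car4 and -1.30 for Trpm3. Thinning to 1000 UMIs left 57 aged vehicle and 16 young expressing barcodes, and the ratio of Plau was then 0.49, with no interval given. The interval of Tnfsf10 in expressing barcodes (-3.24 to -0.99) lay apart from that in the others (-0.30 to 0.34), with no test of the difference.

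Cyp2d12, a cytochrome P450, had the largest higher ratio, at 277 CPM in aged vehicle and 33.1 CPM in young expressing barcodes, a log2 ratio of 2.91 (1.66 to 4.98) beside 2.36 in the others. Slc12a7, a potassium chloride cotransporter, had 2.63 beside 0.37 in the others, Tspan5, a tetraspanin, 2.61 beside 1.26, and Bcl2l1, an inhibitor of apoptosis, 2.6 beside 0.24. Bcl2l1 rested on 36 counts in aged vehicle and 2 in young, and its interval ran from 0.94 to 6.0. Adgrb3, an adhesion receptor, had 2.75 with 42.5% of its aged vehicle counts in 1 barcode, beside 4.09 in the others. Palld, an actin-binding protein, had 2.47, Rad21, a cohesin subunit, 2.38 and Cyp7b1 2.36, the last with 75% of its 12 young counts in 1 barcode. Of cell cycle arrest and senescence genes, 3 of 24 were measured, of which 2 were at least 1.5-fold higher, beside 19.6% of all genes. The highest ratio in this list equals that of Bcl2l1 above, so the count may not be separate from that gene. With 3 genes measured, the list is too short to be read as a group.

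The genes that mark the cells were mostly near equality. Slc22a30 had a log2 ratio of -0.11 in aged vehicle over young (-0.32 to 0.11), beside 0.25 in the others, and Slco1a1 0.06 (-0.43 to 0.60). Cyp2j13 was the exception, at 931 CPM in aged vehicle and 504 CPM in young, a log2 ratio of 0.88 (0.48 to 1.31) beside 1.00 in the others. Of 6 S1 genes measured, 3 were at least 1.5-fold higher in aged vehicle and 0 lower, beside 19.6% and 10.5% of all genes. Their median was 0.45. Slc5a12 had 1.59 (1.04 to 2.24), seen in 27 of 129 aged vehicle and 8 of 43 young barcodes, with 42.9% of the young counts in 1 barcode.

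Between aged D+Q and aged vehicle, 60 of 3194 genes measured were at least 2-fold higher in aged D+Q expressing barcodes (1.88%) and 86 were lower (2.69%). At 1.5-fold these were 283 (8.86%) and 399 (12.5%), and the median log2 ratio was -0.06. Of the genes with an interval past 1.5-fold and at least 20 counts on the higher side, 7 were higher and 5 lower. This comparison shares the aged vehicle library with the one before it, so the values of both are given side by side and not counted together.

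Ehhadh was at 320 CPM in aged D+Q, 99.2 in aged vehicle and 512 in young expressing barcodes, a log2 ratio of 1.68 in aged D+Q over aged vehicle (1.04 to 2.37) beside 1.01 in the others. Keg1, a glycine N-acyltransferase-like gene, was at 3452 CPM in aged D+Q, 1468 in aged vehicle and 2769 in young, a ratio of 1.23 (1.06 to 1.41) beside 0.75 in the others. Lpl, lipoprotein lipase, had 1.19 (0.64 to 1.76) beside 0.73 in the others. Errfi1, a feedback inhibitor of the EGF receptor, had 0.84 (0.64 to 1.04) beside 0.66 in the others. Brd1, a bromodomain protein, had 1.79 beside 1.94 in the others. Osgin1, an oxidative stress response gene, had 1.66 beside 0.45, and Uqcrfs1, the iron-sulfur subunit of respiratory complex III, 1.63 (0.75 to 2.64) beside -0.05 (-0.24 to 0.14).

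Genes with low values in aged D+Q included Cyp7b1, Brap, Phactr2 and Slc5a12. Phactr2, a phosphatase and actin regulator, was at 116 CPM in aged D+Q and 328 CPM in aged vehicle, a log2 ratio of -1.48 (-2.2 to -0.85) beside -0.47 in the others. Cyp7b1 had -1.91 beside -1.03 in the others, with 53.3% of its aged D+Q counts in 1 barcode. Brap, a regulator of MAP kinase signalling, had -1.88 on 9 counts in aged D+Q and 47 in aged vehicle, beside -0.32 in the others. Thinning to 1000 UMIs left 33 aged D+Q and 57 aged vehicle expressing barcodes. The ratios then lay on the other side of 0, at 0.10 for Cyp7b1 and 0.14 for Brap. With no intervals given, this change of direction is not told apart from counting error. Slc5a12 had -1.27 (-1.71 to -0.86) beside -0.03 in the others. It was seen in 16 of 78 aged D+Q and 27 of 129 aged vehicle barcodes. In aged D+Q 31.8% of its counts came from 1 barcode. Of 6 S1 genes measured, 4 were at least 1.5-fold lower in aged D+Q, beside 12.5% of all genes, with a median of -0.71. Barcodes with more S1 than S3 marker UMIs were 15.4% of aged D+Q and 34.1% of aged vehicle expressing barcodes. The part of this share in the S1 ratios was not tested. Of 12 transcripts encoded by the mitochondrial genome, 6 were at least 1.5-fold higher and 0 lower, beside 8.86% and 12.5% of all genes. Their median was 0.58 and their lowest value -0.25. The median mitochondrial share of expressing barcodes was 4.61% in aged D+Q and 3.29% in aged vehicle, and their median depth was 2708 and 1988 counts; the part of depth in these ratios was not tested.

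Slc22a30 had a log2 ratio of 0.16 in aged D+Q over aged vehicle (-0.02 to 0.33), Cyp2j13 -0.20 (-0.48 to 0.08) and Slco1a1 0.13 (-0.28 to 0.53), intervals that held equality. Slc7a13 was at 2292 CPM in aged D+Q and 1416 in aged vehicle, a ratio of 0.69 (0.50 to 0.89) beside 0.19 in the others. The median fatty acid oxidation gene was at -0.05, with 2 of 20 at least 1.5-fold higher and 0 lower. Of 16 conjugation enzymes measured, 4 were at least 1.5-fold higher in aged D+Q and 1 lower, with a median of 0.25. Over all genes 8.86% were higher and 12.5% lower, so 2 of 20 fatty acid oxidation genes is near the share of higher genes.

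**Figure D5:**
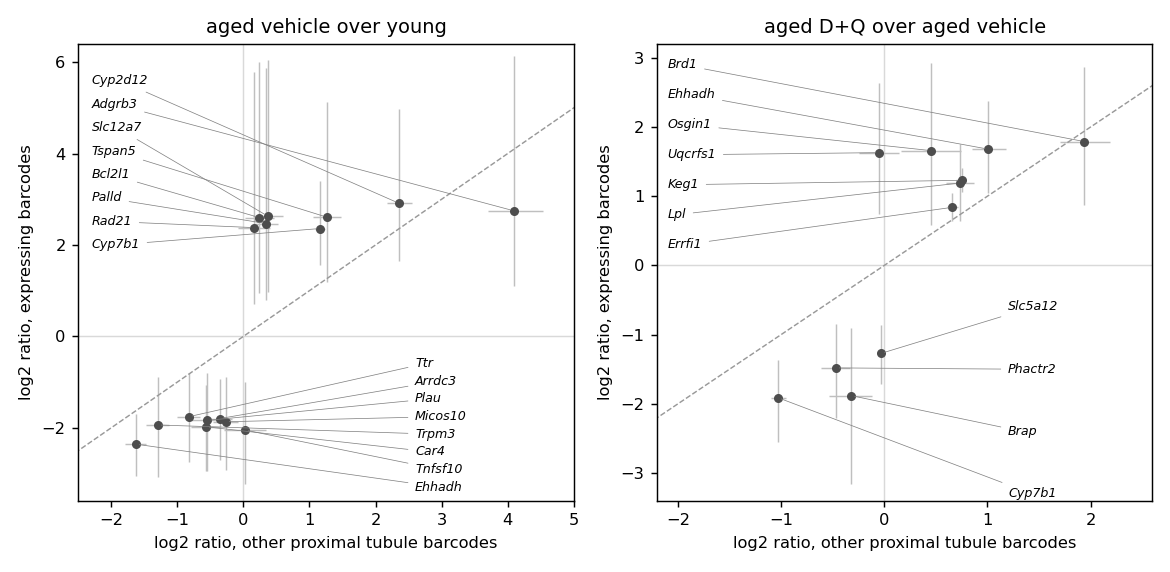
Log2 ratios between libraries in the expressing barcodes (y axes) and in the other proximal tubule barcodes (x axes) for the genes named in the text, aged vehicle over young on the left and aged D+Q over aged vehicle on the right, with exact 95% intervals and a dashed line of equality. Ehhadh is at -2.36 on the left and 1.68 on the right, and Slc5a12 at -1.27 on the right.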

How the data were processed

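Per the labels, kidneys were digested with collagenase II, strained, freed of red blood cells and made into MobiCube 3′ single-cell libraries, sequenced on an Illumina platform. In the deposited files each value is a raw UMI count of 1 of 33696 genes in 1 barcode, with no normalisation by the authors. The submitters' processing notes name GRCm39 and mm10 but not what each was used for, and no coordinates are printed. No source used here gives the aligner, the strand setting or how barcodes were chosen, and the lowest total per barcode was 1416.

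The members, the 39 gene lists and the comparisons were chosen with earlier results of these data known. Counts were summed per library and set of barcodes and scaled to CPM, and 0.5 counts were added to both sides of a log2 ratio. Between libraries, a gene was measured with at least 30 counts over the 2 sides and a mean of at least 30 CPM over them. For members against others, it needed 30 counts over the 3 libraries together and a mean of 30 CPM over both sides of all 3. Lists are described by their mean log2 ratio per gene over the libraries. Genes were named by a rule: an interval past 1.5-fold, 30 CPM and 20 counts on the higher side, in each library for members against others, with up to 15 higher and 10 lower, and up to 8 each way between libraries. Shares have exact Clopper-Pearson intervals, levels exact Poisson and ratios exact conditional binomial intervals at 95%, and a count of 0 was given a floor of 3 counts. With 1 library per group no test was run. Some genes that met the rule are not reported here.

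Scrublet called 0, 2 and 4 barcodes of aged D+Q, aged vehicle and young, less than 0.5% in each, and its calls were not used. No barcode was removed, and leaving out the 517, 291 and 594 highest scores (0.8% expected per 1000 barcodes) was an alternative. The others were mitochondrial limits of 15% and 50%, at least 3 UMIs, no 5-gene condition, thinning to 1000 UMIs, S1 or S3 barcodes as comparison, mean profiles, no CPM floor, TMM and median-of-ratios scaling, and each library left out. The stricter comparison set, thinning without the 5-gene condition, no Cyp4a14 condition and barcodes at 0 of the 5 genes as denominator were added after the data were seen. Tools were Python 3.11.15, numpy 2.4.6, pandas 2.3.3, scipy 1.17.1, scanpy 1.11.5, matplotlib 3.10.9, R 4.3.3 and edgeR 4.0.16 (for TMM factors).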

Additional observations from a re-analysis of the deposited data

Results flagged for a closer look

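Acy3, an aminoacylase counted here among the S3 markers, stood on opposite sides of equality in 2 libraries, with intervals that each left out 0. Its log2 ratio of expressing over other barcodes was 0.42 in aged D+Q (0.12 to 0.69) and -0.42 in aged vehicle (-0.73 to -0.13), and 0.11 in young (-0.29 to 0.46). Its log2 ratio of aged D+Q over aged vehicle was 0.58 in expressing barcodes (0.17 to 0.99) and -0.26 in the other proximal tubule barcodes. These differences of ratios were not tested, and each library is 1 sample.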

How the results depend on the processing

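No paired analysis was possible because each group has 1 library and no replicate numbers are shared. Values are for aged D+Q, aged vehicle and young where 3 are given. The shares were 0.399%, 0.678% and 0.156% with at least 3 UMIs, 3.48%, 4.94% and 1.94% without the 5-gene condition, 0.454%, 0.991% and 0.208% thinned to 1000 UMIs, 0.687%, 1.32% and 0.325% thinned without the 5-gene condition, and 2.88%, 4.98% and 1.87% of barcodes at 0 of the 5 genes. The aged vehicle share over the young one was 2.55 without the 5-gene condition and 2.66 of barcodes at 0 of the 5 genes, and the aged D+Q share over the aged vehicle one was 0.704 without the 5-gene condition. The cause was not tested.

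Genes 2-fold higher in expressing barcodes than in the others numbered 8, against 78 with S1 barcodes as comparison, 14 with S3 barcodes, 121 with no CPM floor, 25 with at least 3 UMIs, 102 thinned, and 12 to 26 with 1 library left out. Genes 2-fold lower numbered 54, against 33 with S3 barcodes, 30 with the stricter comparison set, 248 with no CPM floor, 25 thinned, and 72 to 80 with 1 library left out, where 2 libraries instead of 3 had to be past 2-fold. Between aged vehicle and young, 167 higher and 64 lower genes were 47 and 19 with at least 3 UMIs and 36 and 12 thinned. Between aged D+Q and aged vehicle, 60 higher and 86 lower genes were 25 and 46 with at least 3 UMIs, 10 and 27 thinned, and 20 and 43 without the 5-gene condition.

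Thinning left 33, 57 and 16 expressing barcodes, and no intervals are given for the thinned ratios. The log2 ratio of expressing over other barcodes in the library that went most against the direction reported was then -0.12 for Slco1a1, -0.15 for Nat8f6, 0.30 for Acss1 and 0.66 for Lama2, and between libraries the thinned ratio was 0.49 for Plau (aged vehicle over young), 0.10 for Cyp7b1 and 0.14 for Brap (both aged D+Q over aged vehicle). In the library that went most against the direction, the ratio with the stricter comparison set was 0.05 for Pcdh9, 0.08 for Robo2 and 0.47 for Rbms3, and that with S3 barcodes 0.73 for Angpt1. Pde1a was above 0 in all 3 libraries against S3 barcodes, with a lowest ratio of 0.04 and intervals that held 0 in each.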
